A study of Mus musculus with 24 samples.

Results

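The extracellular matrix and integrin genes of N2a cells were followed at the level of mRNA, ribosome footprints and the ratio of both. Members were chosen by gene symbol alone: collagens, laminins, symbols that begin with Itga or Itgb and a digit, lysyl oxidases, fibulins, fibrillins, thrombospondins, symbols that begin with Adamts, and Papln, Hspg2, Agrn, Sparc, Fn1 and the nidogens, each listed in at least 1 of 8 count tables. The rule found 69 of 12759 listed transcripts, 1 per gene. The rule reads symbols and holds no measured level or difference. However, the group and the genes it names singly, such as Papln, were proposed with earlier results of the same data in view. The counts of members called below are therefore not independent of those results. By role, the members were 15 basement membrane components, 17 other collagens, 7 matrix glycoproteins, 4 lysyl oxidases, 9 ADAMTS or ADAMTS-like genes and 15 integrin chains. Itgb1bp1 and Itgb3bp also matched, although the first encodes a protein that binds an integrin tail and the second a centromere protein, and neither is an integrin chain. The integrin chain gene Itgav did not match and was treated with the other genes of the pathway.

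N2a is a mouse neuroblastoma cell line. The ctrl cells had been transfected with the Cas9 plasmid without a guide, and the eIF4E3 KO cells with the same plasmid carrying 3 guides against Eif4e3, which encodes a cap-binding protein of the eIF4E family. Puromycin selected both, and the KO is a selected pool, not a clone. Each genotype received DMSO or 250 nM Torin1, an inhibitor of the kinase mTOR, for 2 h, with 3 replicates that the labels place on different passages. RNA-seq gave 12 libraries with counts and Ribo-seq 11. The second footprint library of ctrl cells in DMSO, which the paper removed as an outlier, has no counts and was not analysed here.

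Basement membranes are sheets of laminin and type IV collagen, bound together by nidogen and by the heparan sulfate proteoglycans perlecan and agrin. Fibronectin, fibulins and fibrillins assemble around cells into networks and fibres, lysyl oxidases crosslink collagens, and ADAMTS proteases cut matrix proteins. Integrins are pairs of an α and a β chain that bind this matrix from the cell surface and connect it to actin. The secreted members carry a signal peptide and are made at the endoplasmic reticulum. mTOR promotes cap-dependent translation by phosphorylating 4E-BP proteins, which otherwise bind eIF4E.

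RNA-seq totals were 17047795 to 28910907 counts in 12176 transcripts common to all tables. Ribo-seq totals were 669010 to 5284909 counts in 10568 transcripts, lowest in ctrl DMSO replicate 3. Eif4e3 mRNA was 18.2, 12.0 and 18.2 CPM (counts scaled to a common library total) in ctrl DMSO and 3.67, 2.89 and 5.00 in KO DMSO, a log2 difference of -2.05 ± 0.24 (SE, adjusted p = 0.0312, edgeR), and did not overlap between genotypes in Torin1 (12.5 to 17.3 against 4.49 to 5.04). All 12 markers of sympathoadrenal neuroblastoma were listed, at a summed 2290 to 3130 mRNA CPM in every library. Of the markers of other cells, 5 of 11 for fibroblasts, 4 of 5 for endothelium, 2 of 5 for Schwann cells and 1 of 4 for leukocytes were listed, at 1.30 to 29.4 CPM summed per list. Cd44, Fap, Lum, Twist1, Kdr, Sox10, Csf1r and Ptprc were among those not listed. Of those listed, the highest single marker of other cells reached 25.0 CPM in a library. The lowest marker of neuroblastoma fell to 4.29 CPM. The part of other cells in the results below was not tested.

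Of the 69 members, 44 passed the filter on low counts (over 1 CPM in every library of at least 1 condition compared) in at least 1 mRNA comparison and 39 in at least 1 footprint comparison. The 25 that never passed in mRNA included 10 of the 17 other collagens, and the highest level of any of them in a library was 1.59 CPM, for Itga2b. Counts of members below therefore describe those tested and not the whole group. CPM were scaled by the trimmed mean of M values (TMM) and are relative to the library, so a value does not give RNA per cell, and in bulk samples fewer cells with a transcript cannot be told apart from less of it per cell. Members took 0.337 to 0.456% of mRNA counts, 0.450 to 0.558% of footprints in DMSO and 0.365 to 0.428% of footprints in Torin1.

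The first 30 coding bases of 11 members are shown, since these span the start codons at which their footprints begin. All but Itgb1 had lower TE after Torin1 in ctrl, in KO or in both. The capitals mark the start codon, and the sequences come from the GRCm38 genome with GENCODE M21 annotation, on the coding strand. Hspg2 lies at chr4:137468862-137468891 on the plus strand, Agrn at chr4:156197391-156197420 on the minus strand, Col4a1 at chr8:11312570-11312599 on the minus strand, Col4a2 at chr8:11313464-11313493 on the plus strand, Lama5 at chr2:180225773-180225802 on the minus strand and Lamc1 at chr1:153332510-153332539 on the minus strand. Fbln1 lies at chr15:85206134-85206163, Fbln2 at chr6:91233076-91233105, Loxl2 at chr14:69633927-69633956, Lama4 at chr10:38965955-38965984 and Itgb1 at chr8:128705413-128705442, all on the plus strand. All are within 1 coding exon, which is exon 2 for Col4a2, Fbln2, Loxl2 and Itgb1 and exon 1 for the others.
Hspg2: ATGgggcagcgggcagtgggctcgttgctg
Agrn: ATGgtccgcccgcggctgagcttcccggcc
Col4a1: ATGgggccccggctcagcgtctggcttctg
Col4a2: ATGgaccgagtgcggttcaaagcgtctggc
Lama5: ATGgcgaagcgcggagggcagctctgcgcg
Lamc1: ATGacgggcggcgggcgggccgcgctggcc
Fbln1: ATGgagcgccccgtgccgtcgcgcctcgtc
Fbln2: ATGctgctccaggaatctgcaggagtgtgg
Loxl2: ATGgagctccattttggctcctgcctctcc
Lama4: ATGggttggagcacagcttggtgctcagtc
Itgb1: ATGaatttgcaactggtttcctggattgga

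G and C made up 86.7% of these bases in Lamc1, 76.7% in Agrn and in Fbln1, 73.3% in Lama5 and 70.0% in Hspg2 and in Col4a1. They made up 60.0% in Col4a2, 56.7% in Fbln2, Loxl2 and Lama4, and 40% in Itgb1. In Itga1, whose bases are not printed and whose TE change after Torin1 was not called in either genotype, they made up 63.3%. Col4a1 and Col4a2, the chains of the common type IV collagen, are on opposite strands, and their annotated first exons overlap by 22 bases.

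In untreated ctrl cells the highest mRNA levels per kilobase of coding sequence were those of Fbln1 at 332 CPM and Itgb1 at 227 CPM. Fbln1 encodes a glycoprotein of basement membranes and elastic fibres, and Itgb1 the β1 chain shared by most matrix-binding integrins. Among basement membrane members, the type IV collagen chain Col4a2 had 82.3 CPM per kilobase and the laminin γ1 chain Lamc1 62.6. Fbln2 was at 58.4, the integrin chains Itgb5 and Itga6 at 57.7 and 50.0, Col4a1 at 42.3, Sparc, a collagen-binding glycoprotein, at 39.8 and Agrn at 38.7. The leading members of the other roles were lower: Col6a5, a type VI collagen chain, had 20.8, the protease gene Adamts4 15.9, the lysyl oxidase gene Loxl2 12.1, the collagen gene Col22a1 7.38, and Loxl3 and Adamts10 1.64 each. Itgb1bp1 was at 54.3 and Itgb3bp at 25.7.

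Translational efficiency (TE) of a member is footprint CPM over mRNA CPM of the library with the same number, averaged within a condition. For all transcripts it is the mean footprint CPM over the mean mRNA CPM of a condition. In ctrl DMSO those means are over 2 Ribo-seq and 3 RNA-seq libraries. The medians set side by side here are therefore not of exactly the same measure. In DMSO the members' median TE was 1.11 in ctrl and 1.12 in KO (44 members), beside 0.933 and 0.946 for all transcripts. In Torin1 it was 0.661 in ctrl (39 members) and 0.530 in KO (44 members), beside 0.918 and 0.920 for all transcripts. By role, the median of 11 basement membrane members went from 1.02 to 0.189 in ctrl and from 0.820 to 0.133 in KO. That of 7 glycoproteins went from 1.21 to 0.564 and from 1.26 to 0.490. For 10 integrin chains in KO it went from 1.67 to 0.850. In ctrl it was 1.53 over 10 chains in DMSO and 1.07 over 9 in Torin1, which are unlike sets. The chain without a Torin1 value in ctrl, Itgb3, had TE of 6.14 and 0 in the ctrl DMSO libraries. Among the 8 integrin chains tested in ctrl, the median log2 change of TE was -0.06.

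What Torin1 did to footprints was tested in each genotype by the quasi-likelihood test of edgeR. All adjusted p-values below come from that test, corrected over all transcripts by the Benjamini-Hochberg method, with a threshold of 0.05. In ctrl, 9 of 38 tested members had fewer footprints after Torin1 and 2 had more, where 9.93% of all tested transcripts were lower and 5.69% higher. In KO, 21 of 39 were lower and 2 higher, against 22.1% and 18.5% of all. The members' median log2 change was -0.47 in ctrl and -1.06 in KO, and that of all transcripts 0.02 in each. Without scaling beyond library size, all transcripts had a median of 0.23 in ctrl and 0.26 in KO. The calls of members were then 9 lower with 5 higher for ctrl, and 21 lower with 5 higher for KO. Of members that passed the filter in both conditions, 8 of 31 were lower in ctrl and 18 of 31 in KO. The shares of all transcripts above include those that passed in 1 condition only, and no share is given for this smaller set. The ctrl DMSO side had 2 Ribo-seq libraries, and without the shallow replicate 3 the ctrl calls numbered 12.

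TE changes were tested as the interaction of assay and condition in 1 model over RNA-seq and Ribo-seq. In ctrl, 9 of 37 members had lower TE after Torin1 and none had higher TE, beside 4.29% lower and 0.383% higher among all transcripts. In KO, 21 of 39 were lower and none higher, beside 17.8% and 10.6%. Of members that passed the filter in both conditions, 8 of 30 were lower in ctrl and 18 of 30 in KO, again without a share of all transcripts. The median log2 TE change was -0.46 in ctrl and -0.94 in KO. All 9 members with lower TE in ctrl were also lower in KO, where they made up 42.9% of the list; the ctrl and KO responses share no library. Without scaling, the median over all transcripts moved from -0.01 to 0.16 in ctrl, and to 0.24 from -0.01 in KO. By role, lower TE was called in 7 of 11 basement membrane members in ctrl and 9 of 11 in KO, in 2 of 6 and 6 of 7 glycoproteins, in 0 of 8 and 3 of 9 integrin chains, in 0 and 2 of 5 other collagens, in 0 and 1 of 2 lysyl oxidases and in 0 of 3 ADAMTS genes in either genotype.

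**Figure D1:**
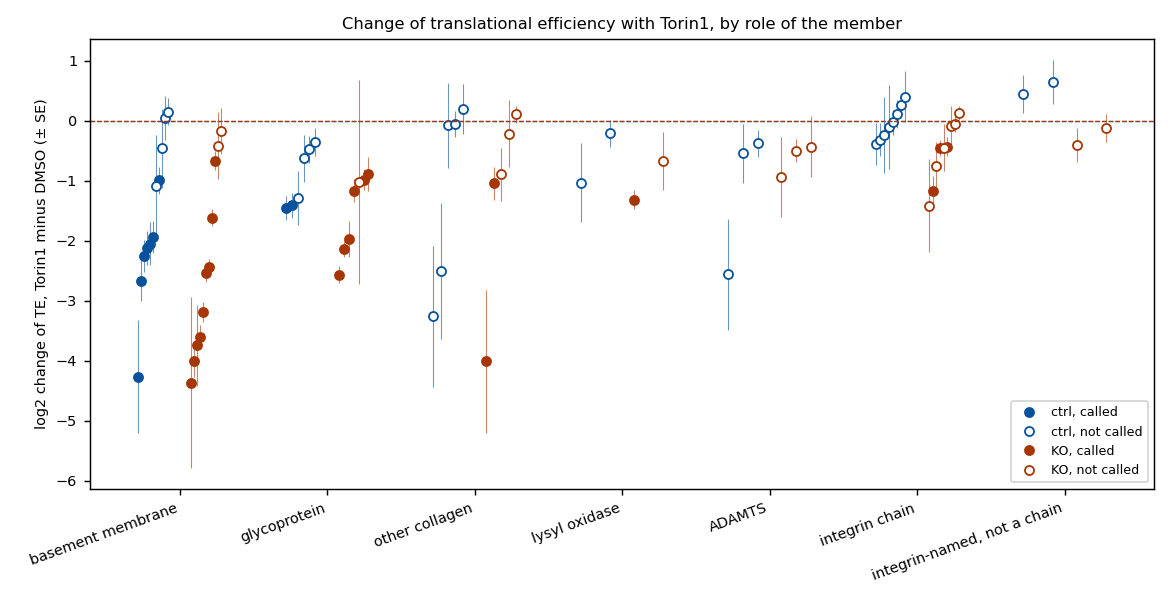
The log2 change of TE from DMSO to Torin1 (vertical axis) is plotted for each tested member, grouped by role on the horizontal axis, with ctrl in blue and KO in brown. Bars are standard errors, filled points passed the adjusted threshold, and dashed lines mark the median of all transcripts. Outside Papln and Lamb2, basement membrane members reach -2.67 in ctrl (Hspg2) and -4.0 in KO (Lama5). Lama5 had 4, 9 and 5 footprint counts in KO Torin1. Points with long bars are members with few footprints such as Papln and Lamb2. The integrin chains have a median of -0.06 in ctrl and -0.45 in KO.

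Among basement membrane members, the proteoglycan perlecan (Hspg2) had the largest footprint loss in KO. Its footprint CPM was 199 and 217 in the ctrl DMSO libraries and 23.2, 18.5 and 17.6 in ctrl Torin1. In KO it was 205, 206 and 251 in DMSO and 7.05, 11 and 14.3 in Torin1, so that neither genotype had overlapping groups. The log2 changes were -3.40 ± 0.18 (SE, adjusted p = 3.46e-10) in ctrl and -4.40 ± 0.18 (adjusted p = 3.72e-19) in KO. Its TE changed by -2.67 ± 0.34 (adjusted p = 2.09e-05) in ctrl and -3.61 ± 0.20 (adjusted p = 6.68e-13) in KO. Hspg2 mRNA also fell in KO, as described further on.

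Agrin (Agrn), the other large heparan sulfate proteoglycan and an organizer of synapses, followed Hspg2. Its footprints were at 170 and 209 CPM in ctrl DMSO, 37.6, 31.9 and 26.1 in ctrl Torin1, 188, 186 and 190 in KO DMSO, and 14.1, 15.8 and 18.9 in KO Torin1. All 3 KO Torin1 libraries lay below all 3 ctrl Torin1 libraries. TE was 0.883 and 0.685 in ctrl DMSO, 0.225, 0.15 and 0.134 in ctrl Torin1, and 0.0747, 0.0697 and 0.0825 in KO Torin1. The log2 TE changes were -2.25 ± 0.27 (adjusted p = 8.06e-06) in ctrl and -3.18 ± 0.17 (adjusted p = 2.79e-13) in KO.

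The type IV collagen chains fell together. Col4a2 footprints were at 267 and 357 CPM in ctrl DMSO, 63.7, 72.6 and 85.7 in ctrl Torin1, 278, 361 and 295 in KO DMSO, and 48.0, 42.1 and 49.7 in KO Torin1. Col4a1 footprints were at 132 and 222, at 36.2, 47.2 and 55.1, at 146, 168 and 166, and at 33.5, 37.3 and 36.6 CPM in the same order. Neither chain overlapped between DMSO and Torin1. For Col4a2, the TE change was -1.94 ± 0.26 (adjusted p = 3.51e-05) in ctrl and -2.53 ± 0.15 (adjusted p = 2.06e-12) in KO. For Col4a1 it was -2.12 ± 0.28 (adjusted p = 2.62e-05) and -2.44 ± 0.14 (adjusted p = 1.51e-12).

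The laminin chains did not move alike. Lama5, the α chain of laminins widespread in mature basement membranes, had 28.5 and 35.7 footprint CPM in ctrl DMSO, 7.24, 10.6 and 17.6 in ctrl Torin1, 30.8, 28 and 29.2 in KO DMSO, and 1.76, 4.31 and 2.86 in KO Torin1. Its log2 TE change was -2.05 ± 0.36 (adjusted p = 0.000776) in ctrl and -4.0 ± 0.27 (adjusted p = 1.19e-11) in KO. That was the most negative in KO outside Lamb2 and Col7a1, which had 2 footprint counts left in Torin1. Lama5 itself had 4, 9 and 5 footprint counts in KO Torin1. Lamc1, the γ1 chain found in most laminins, had 496 and 592 CPM in ctrl DMSO, 284, 294 and 326 in ctrl Torin1, 538, 599 and 593 in KO DMSO, and 167, 177 and 226 in KO Torin1. Its TE change was -0.99 ± 0.22 (adjusted p = 0.00926) in ctrl, a call lost without ctrl DMSO replicate 3, and -1.62 ± 0.14 (adjusted p = 2.78e-09) in KO.

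Lama4, a laminin α chain of vessels and peripheral nerve, went the other way in ctrl footprints. They were at 74.8 and 104 CPM in DMSO and 122, 162 and 175 in Torin1, a log2 change of 0.87 ± 0.19 (adjusted p = 0.00447), lost without ctrl DMSO replicate 1. In KO they were at 106, 123 and 134 in DMSO and 116, 139 and 175 in Torin1, which overlap. Its mRNA rose in both genotypes, and TE was 1.5, 1.76 and 1.85 in KO DMSO and 0.875, 1.07 and 1.37 in KO Torin1, a log2 change of -0.67 ± 0.16 (adjusted p = 0.0024).

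**Figure D2:**
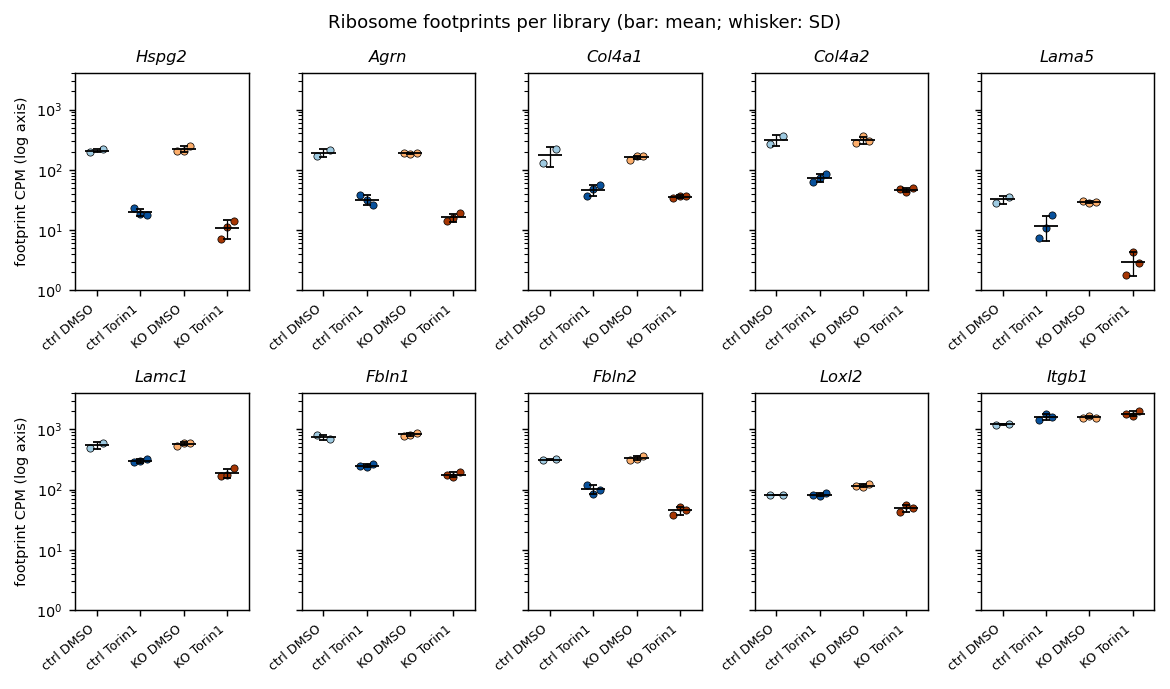
Footprint CPM on a log axis is plotted for 10 members, 1 panel each, with 1 point per library, a bar at the mean and a whisker of 1 SD in the 4 conditions. In Hspg2, Agrn, Col4a1, Col4a2, Lama5, Lamc1, Fbln1 and Fbln2 the Torin1 points lie below the DMSO points in both genotypes, and Loxl2 falls in KO alone, to 41.9 to 55.1 CPM.

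Among the glycoproteins, both fibulins fell in both genotypes. Fbln1 footprints were at 795 and 688 CPM in ctrl DMSO, 248, 241 and 262 in ctrl Torin1, 782, 807 and 877 in KO DMSO, and 175, 160 and 195 in KO Torin1. Its log2 TE change was -1.45 ± 0.20 (adjusted p = 6.53e-05) in ctrl and -2.14 ± 0.13 (adjusted p = 2.32e-12) in KO. Fbln2, which binds fibronectin, perlecan and laminins, had 315 and 316 CPM in ctrl DMSO, 119, 84.2 and 98.2 in ctrl Torin1, 311, 327 and 360 in KO DMSO, and 37.9, 50.7 and 46.3 in KO Torin1. The DMSO levels of Fbln2 overlapped between the genotypes, while the KO Torin1 libraries lay below all ctrl Torin1 libraries. Its TE change was -1.41 ± 0.20 (adjusted p = 8.14e-05) in ctrl and -2.56 ± 0.15 (adjusted p = 9.39e-13) in KO.

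Fibronectin (Fn1), an adhesive glycoprotein bound by integrins, had 130 and 159 footprint CPM in ctrl DMSO and 117, 123 and 135 in ctrl Torin1, which overlap. In KO it had 176, 233 and 268 in DMSO and 100, 147 and 145 in Torin1. The KO groups did not overlap, and the TE change there was -0.98 ± 0.17 (adjusted p = 0.000124). Sparc had 67.1 and 64.9 CPM in ctrl DMSO, 43.4, 55.5 and 47.1 in ctrl Torin1, 81.8, 79.9 and 67.7 in KO DMSO, and 30.8, 28.2 and 37.7 in KO Torin1. Its TE change in KO was -1.16 ± 0.19 (adjusted p = 4.43e-05). Thbs3, a thrombospondin, and Fbn1, the microfibril protein fibrillin-1, are named for their role after their values were seen. Their TE changes in KO were -1.98 ± 0.30 (adjusted p = 1.67e-05) and -0.88 ± 0.28 (adjusted p = 0.0199). With the replicate number as a block, Thbs3 TE was also lower in ctrl, by -1.69 (adjusted p = 0.0115).

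Thbs1, Papln and Lamb2 had stood out in earlier results and are given without a test. They are included in the counts of members above and below. Without them, footprints after Torin1 were lower in 8 and higher in 1 of 35 members in ctrl, and lower in 19 and higher in 1 of 36 in KO. TE was lower in 8 of 35 in ctrl and 19 of 36 in KO, and in 6 and 7 of 9 basement membrane members. Thbs1, a thrombospondin known as an early-response gene, had 0.0781, 0 and 0 mRNA CPM in ctrl DMSO and 1.24, 0.529 and 1.06 in ctrl Torin1. In KO it had 0, 0 and 0.0407 in DMSO and 2.71, 1.54 and 1.80 in Torin1, from 1 count summed over the DMSO libraries and 160 over the Torin1 libraries. That is a depth-adjusted ratio of 128 (95% exact counting interval 22.6 to 5085). Its footprints went from 0 to 15 counts in ctrl, at least 4.51-fold higher by a floor of 3 counts over the group, and from 1 to 26 in KO, a ratio of 43.4 (7.13 to 1779). Intervals and floors cover counting error only.

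Papln, which encodes papilin, a basement membrane protein related to the ADAMTS family, had 35 footprint counts in ctrl DMSO and 2 in ctrl Torin1, a ratio of 0.0516 (0.00601 to 0.201). In KO it had 61 and 3, a ratio of 0.0821 (0.0165 to 0.251), while its mRNA was 3.21 to 4.58 CPM in KO DMSO and 3.56 to 4.52 in KO Torin1. Lamb2, the laminin β2 chain, had 39 footprint counts in KO DMSO and 2 in KO Torin1, a ratio of 0.0856 (0.0100 to 0.331). Its mRNA was 3.02, 4.41 and 2.97 CPM in KO DMSO and 3.35, 12.4 and 2.32 in KO Torin1, where replicate 2 stood apart.

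Of the lysyl oxidases, Loxl2, which is known to crosslink type IV collagen, passed the test in KO and not in ctrl. Its footprints were at 82.0 and 81.1 CPM in ctrl DMSO, 80.3, 79.6 and 86.8 in ctrl Torin1, 114, 111 and 123 in KO DMSO, and 41.9, 55.1 and 49.7 in KO Torin1. The ctrl groups overlapped and the KO groups did not. TE was 2.44 to 2.58 in ctrl Torin1 and 1.05 to 1.47 in KO Torin1, with log2 changes of -0.21 ± 0.22 (adjusted p = 0.708) in ctrl and -1.31 ± 0.16 (adjusted p = 7.27e-07) in KO. The difference between the genotypes' responses is tested further on.

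Other collagens were mixed. Col6a5 footprints rose in KO, from 169, 197 and 181 CPM to 246, 259 and 234, a log2 change of 0.41 ± 0.11 (adjusted p = 0.00341), beside a TE of 0.984 ± 0.110 (mean ± SD, n = 3) in KO DMSO and 1.09 ± 0.19 in KO Torin1, not called. Col22a1, a collagen of tissue junctions, went from 13.8, 19.9 and 20.5 CPM to 5.73, 10.5 and 7.43 in KO, with a TE change of -1.04 ± 0.28 (adjusted p = 0.00625). Col7a1, the anchoring fibril collagen, is given for its role: it had 36 footprint counts in KO DMSO and 2 in KO Torin1, a ratio of 0.0927 (0.0108 to 0.360).

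Adamts4, a protease that cuts aggrecan, was the only ADAMTS member called in footprints. In KO it went from 76.2, 77.2 and 82.3 CPM to 36.6, 58.4 and 51.4, a log2 change of -0.71 ± 0.15 (adjusted p = 0.000325). Its TE change was -0.50 ± 0.19 (adjusted p = 0.0521), and -0.49 (adjusted p = 0.0208) with the replicate number as a block.

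Among the integrin chains, no member was called in ctrl in footprints or TE, and 3 of 9 were lower in KO in each. Itgb1 footprints were at 1198 and 1228 CPM in ctrl DMSO, 1407, 1787 and 1609 in ctrl Torin1, 1567, 1676 and 1552 in KO DMSO, and 1773, 1690 and 2013 in KO Torin1. Its TE change was 0.27 ± 0.17 (adjusted p = 0.489) in ctrl and 0.13 ± 0.12 (adjusted p = 0.460) in KO. Itga1, the α chain that pairs with β1 to bind collagen IV, had TE changes of 0.11 ± 0.24 in ctrl and -0.05 ± 0.14 in KO, neither called.

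Itgb5, which pairs with αv, was lower in KO. Its footprints went from 67.6, 70.9 and 74.0 CPM to 34.8, 46.0 and 41.7, and its TE change was -0.43 ± 0.16 (adjusted p = 0.0453). That TE call was lost in 10 of 12 fits that left out 1 library each (it remained without KO DMSO replicate 2 of the RNA-seq or KO Torin1 replicate 2 of the Ribo-seq) and without scaling. The laminin-binding chains Itga6 and Itga3 are named for their role after their values were seen. Itga6 footprints went from 501, 500 and 537 CPM to 332, 344 and 354 in KO, with a TE change of -0.45 ± 0.13 (adjusted p = 0.0129). Itga3 went from 23.3, 25.3 and 29.9 CPM to 11.5, 10.1 and 12.6, with a TE change of -1.17 ± 0.25 (adjusted p = 0.000852). In both, the KO groups did not overlap.

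The mRNA of the members moved less. In ctrl, 3 of 42 tested members had more mRNA after Torin1 and none less, beside 2.05% higher and 0.675% lower among all transcripts. In KO, 5 of 43 were higher and 4 lower, beside 6.23% and 3.74%. The 5 include Thbs1, given above without a test. Without Thbs1, Papln and Lamb2, 3 of 40 were higher in ctrl, and 4 of 40 higher with 4 lower in KO. Of members that passed the filter in both conditions, 2 of 37 were higher in ctrl, and 4 of 41 higher with 4 lower in KO. In ctrl, Adamts6 passed the filter through Torin1 alone. No share of all transcripts is given for these smaller sets. The 3 members higher in ctrl, Lama4, Lama5 and Adamts6, were also higher in KO, where they made up 60.0% of the list, Thbs1 included. The members' median log2 change was 0.11 in ctrl and 0.09 in KO.

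Lama4 mRNA was at 61.9, 67.4 and 73.1 CPM in ctrl DMSO, 112, 110 and 108 in ctrl Torin1, 70.4, 70.3 and 72.3 in KO DMSO, and 132, 130 and 128 in KO Torin1. The groups were apart in both genotypes, with log2 changes of 0.71 ± 0.11 (adjusted p = 0.00501) in ctrl and 0.88 ± 0.07 (adjusted p = 6.26e-06) in KO. Lama5 mRNA went from 38.4, 46.6 and 57.6 to 64.4, 86.6 and 80.8 CPM in ctrl and from 50.8, 44.1 and 45.6 to 76.4, 76.1 and 72.0 in KO. Those changes were 0.70 ± 0.16 (adjusted p = 0.0455) and 0.68 ± 0.08 (adjusted p = 0.000318). Lama5 had more mRNA and fewer footprints after Torin1 in each genotype.

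Adamts6, a metalloprotease gene with little mRNA here, went from 1.76, 1.08 and 2.16 CPM to 3.99, 4.81 and 2.88 in ctrl, a log2 change of 1.23 ± 0.29 (adjusted p = 0.0451), and by 0.94 ± 0.23 (adjusted p = 0.0268) in KO. Col4a1 mRNA rose by 0.25 ± 0.07 (adjusted p = 0.0456) in KO. The Lama4, Adamts6 and Lama5 calls in ctrl were lost in 1, 4 and 5 of 6 fits that left out 1 library. The ctrl count of 3 was 0 without ctrl Torin1 replicate 1, 1 without ctrl DMSO replicate 2 and 10 without ctrl DMSO replicate 3, and it was 1 without scaling. The KO count of 9 was 5 without KO Torin1 replicate 2, and the Col4a1 call was lost in 4 of 6 such fits.

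Hspg2 had the largest mRNA decrease among members in KO, from 269, 256 and 281 CPM to 163, 139 and 160, a log2 change of -0.80 ± 0.07 (adjusted p = 4.46e-05). In ctrl it was at 143, 214 and 333 in DMSO, where the libraries spread widely, and 135, 140 and 138 in Torin1. Agrn changed in KO by -0.39 ± 0.08 (adjusted p = 0.0125), Itgb5 by -0.39 ± 0.08 (adjusted p = 0.0108) and Fbln2 by -0.35 ± 0.07 (adjusted p = 0.0115). With the replicate number as a block, 1328 transcripts of any kind were called in ctrl, where the fit without it called 299 of 10958. Members called were then 7, of which 2 were lower and 5 higher. The lower ones were Hspg2, at -0.65 (adjusted p = 0.00183), and Itgb5, at -0.37 (adjusted p = 0.0465).

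**Figure D3:**
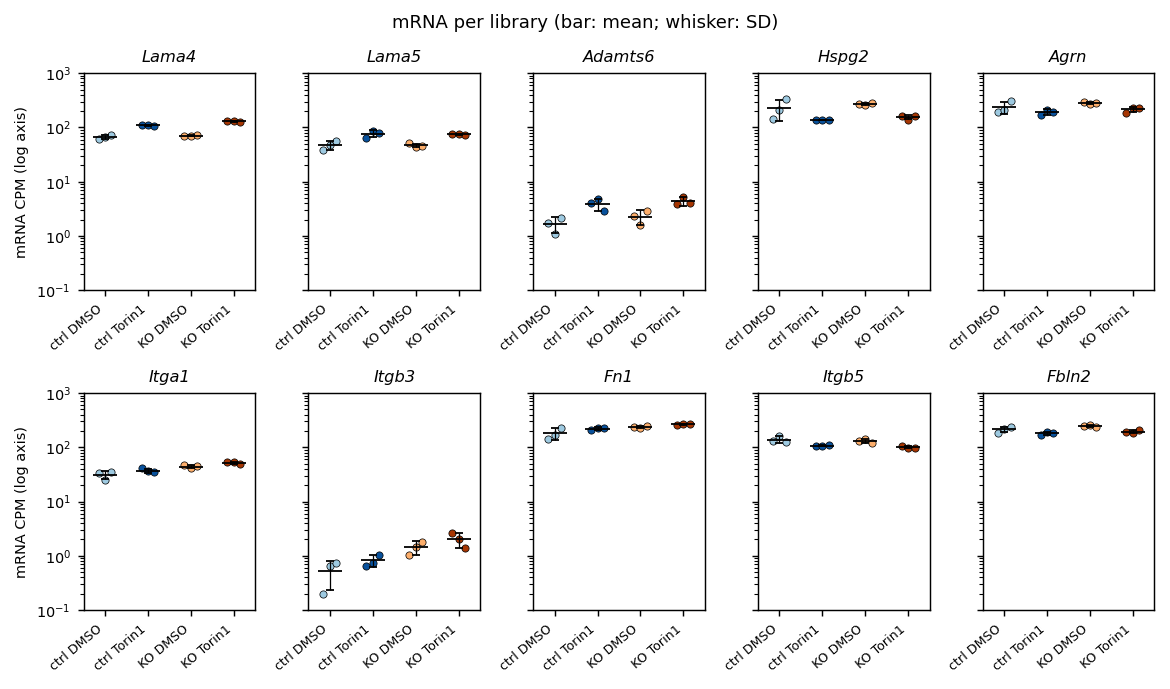
mRNA CPM on a log axis is plotted for 10 members, 1 panel each, with 1 point per library, a bar at the mean and a whisker of 1 SD in the 4 conditions. Lama4 stands at 107.7 CPM or more in all Torin1 libraries and at 73.1 or less in all DMSO libraries, and Hspg2 in ctrl DMSO spreads from 143 to 333.

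KO and ctrl cells were compared in DMSO to see whether the members differed before Torin1. No member passed in mRNA (0 of 41), footprints (0 of 38) or TE (0 of 37) by the quasi-likelihood test of edgeR, which called 0.0183%, 0.0279% and 0% of all transcripts. DESeq2 called no member either. At an unadjusted p under 0.05 there were 8, 8 and 2 members, or 19.5, 21.1 and 5.41% of those tested, beside 5.91, 7.90 and 4.07% of all transcripts. The members' median log2 difference, KO minus ctrl, was 0.16 in mRNA, 0.14 in footprints and -0.06 in TE.

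Among the members that the replicate block called in mRNA, which are given further on, were Itgb3, Itga1 and Loxl2. Itgb3, the chain of the vitronectin receptor, had 0.195, 0.638 and 0.736 CPM in ctrl and 1.02, 1.47 and 1.83 in KO (log2 difference 1.52 ± 0.43, adjusted p = 0.683). Itga1 had 34.2, 24.9 and 35.0 against 46.8, 41.2 and 44.3 CPM, and Loxl2 26.8, 24.6 and 33.0 against 42.5, 35.1 and 38.1. In these genes the groups did not overlap. Of the other members that the block called, Fn1 and Itga3 did not overlap either. Itga6 did, at 101 to 203 CPM in ctrl against 185 to 245 in KO. The share of all transcripts without overlap was not counted. With the replicate number as a block, 866 transcripts of any kind were called in mRNA, where the fit without it called 2 of 10924. Among the 866 were 6 members. Itga6 differed by 0.52 (adjusted p = 0.00027), Fn1 by 0.44 (adjusted p = 0.00257), Itga1 by 0.51 (adjusted p = 0.00362), Itgb3 by 1.52 (adjusted p = 0.00579), Loxl2 by 0.47 (adjusted p = 0.00837) and Itga3 by -0.51 (adjusted p = 0.0208).

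KO and ctrl cells were then compared under Torin1. These comparisons use the same Torin1 libraries as the responses above, so their values stand beside those and are not independent of them. In mRNA, 4 of 44 members were higher in KO and none lower, beside 1.01% higher and 0.954% lower among all transcripts. Of these 4, Itgb3 passed the filter through KO alone. Of members that passed in both conditions, 3 of 41 were higher, and no share of all transcripts is given for that smaller set. Itga1 had 40.7, 36.7 and 34.6 CPM in ctrl and 53.6, 52.6 and 49.9 in KO, without overlap (log2 difference 0.48 ± 0.07, adjusted p = 0.00721). Fn1 differed by 0.27 ± 0.05 (adjusted p = 0.0222), Lama4 by 0.25 ± 0.05 (adjusted p = 0.0226) and Itgb3 by 1.35 ± 0.30 (adjusted p = 0.0366), the last of these lost without the filter on low counts.

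Of 6 fits without 1 library, the Itga1 call was lost in 1, those of Fn1 and Lama4 in 4 and that of Itgb3 in 5. The mRNA count of 4 was 0 without ctrl Torin1 replicate 3, 1 without KO Torin1 replicate 2, and 2 without ctrl Torin1 replicate 1, KO Torin1 replicate 1 or KO Torin1 replicate 3. With the replicate number as a block, 1041 transcripts of any kind were called, where the fit without it called 216 of 11007. The count of members was then 15, with 13 higher and 2 lower. Loxl2 (0.28), Itga6 (0.17), Hspg2 (0.16) and Agrn (0.17) were among those higher and Itga3 (-0.43) among those lower.

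In footprints, 11 of 34 tested members were lower in KO than in ctrl under Torin1 and none higher, beside 4.01% lower and 2.02% higher among all transcripts, with a median log2 difference of -0.39. By role, these were 4 of 9 basement membrane members, 3 of 7 glycoproteins and 1 each of 8 integrin chains, 3 ADAMTS genes, 2 lysyl oxidases and 3 other collagens. All 11 were among the 31 members that passed the filter in both conditions. The differences were -2.0 ± 0.42 for Lama5 (adjusted p = 0.00228), -1.15 ± 0.15 for Fbln2 (adjusted p = 2.13e-06) and -0.97 ± 0.22 for Agrn (adjusted p = 0.00513). Loxl2 differed by -0.75 ± 0.15 (adjusted p = 0.000927), Col4a2 by -0.68 ± 0.15 (adjusted p = 0.00458), Lamc1 by -0.67 ± 0.11 (adjusted p = 0.000122) and Fbln1 by -0.50 ± 0.11 (adjusted p = 0.00291).

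The remaining 4 were Col22a1 at -1.11 ± 0.31 (adjusted p = 0.0202), Sparc at -0.62 ± 0.18 (adjusted p = 0.0256), Adamts4 at -0.53 ± 0.16 (adjusted p = 0.0379) and Itgb5 at -0.51 ± 0.16 (adjusted p = 0.0480). Hspg2 missed the threshold at -0.88 ± 0.28 (adjusted p = 0.0523). DESeq2 called 6 members, without Adamts4, Col22a1, Itgb5, Lama5 and Sparc. Without 1 library, the call was lost in 6 of 6 fits for Itgb5, 5 for Adamts4, 4 for Col22a1, 3 for Sparc, 2 for Col4a2 and 1 for Fbln1. The count was 7 without ctrl Torin1 replicate 3 or without KO Torin1 replicate 2.

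In TE, 8 of 34 members were lower in KO under Torin1 and none higher, beside 2.26% lower and 0.590% higher among all transcripts. The members' median was -0.38, and all 8 were among the 30 members that passed the filter in both conditions. These 8 were 5 of 9 basement membrane members (Hspg2, Agrn, Col4a2, Lama5, Lamc1), 2 of 7 glycoproteins (Fbln1, Fbln2) and Loxl2, with no integrin chain among them. Lama5 TE was 0.112, 0.123 and 0.218 in ctrl Torin1 and 0.0231, 0.0566 and 0.0397 in KO Torin1, a log2 difference of -1.98 ± 0.44 (adjusted p = 0.0112). Fbln2 TE was 0.709, 0.448 and 0.535 against 0.196, 0.280 and 0.219, a difference of -1.26 ± 0.16 (adjusted p = 3.52e-05). In neither gene did the genotypes overlap.

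Agrn differed by -1.13 ± 0.24 (adjusted p = 0.00875), Hspg2 by -1.05 ± 0.26 (adjusted p = 0.0217) and Loxl2 by -1.03 ± 0.15 (adjusted p = 0.000237). Col4a2 differed by -0.72 ± 0.15 (adjusted p = 0.00754), Lamc1 by -0.66 ± 0.13 (adjusted p = 0.00469) and Fbln1 by -0.41 ± 0.11 (adjusted p = 0.0335). Fbln2, Loxl2, Lamc1 and Col4a2 were called in all 12 fits that left out 1 library, while Fbln1 was lost in 8 of them. Without KO Torin1 replicate 1 of the Ribo-seq the count was 4, with Agrn, Lama5, Hspg2 and Fbln1 lost. Col4a1, next to Col4a2 in the genome, differed by -0.46 ± 0.16 (adjusted p = 0.122), Lama4 by -0.36 ± 0.15 (adjusted p = 0.215) and Itgb1 by 0.10 ± 0.11 (adjusted p = 0.692).

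**Figure D4:**
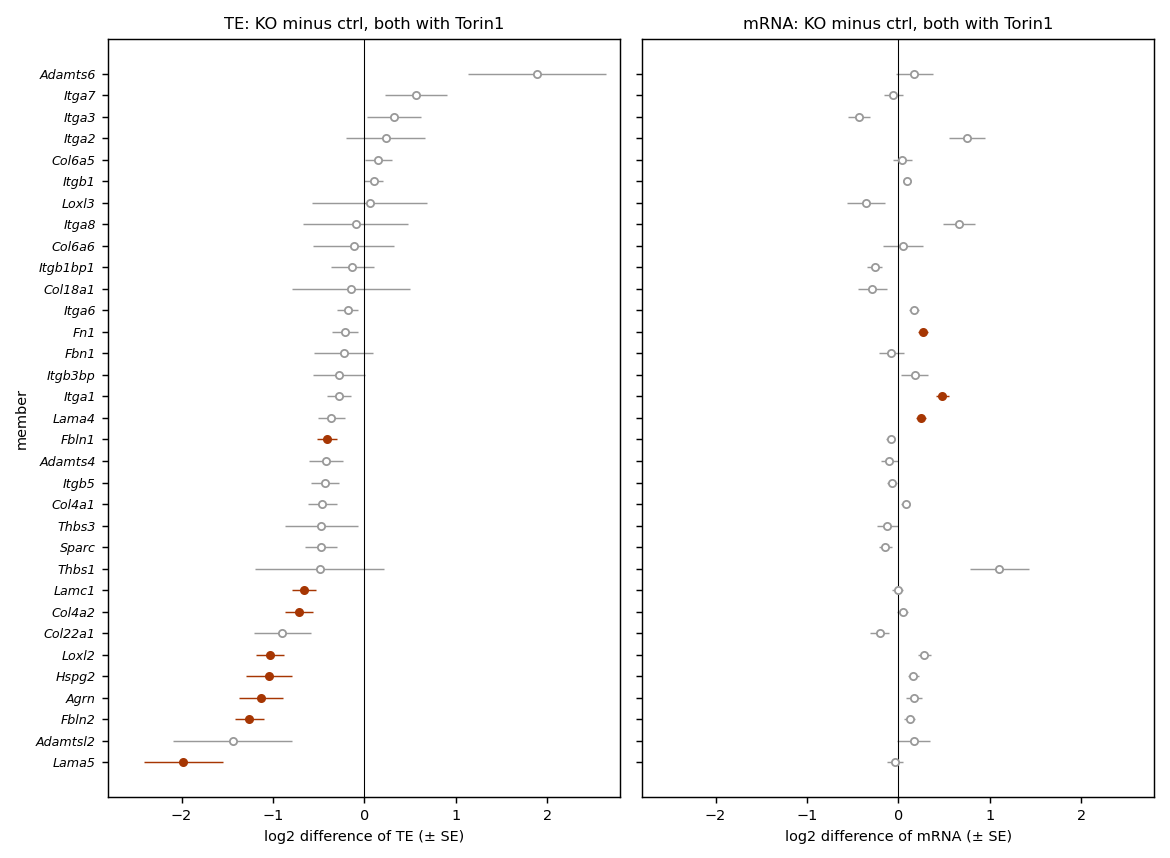
The log2 difference KO minus ctrl under Torin1 in TE and in mRNA is plotted for 33 of the 34 members tested in TE, with standard errors and with filled points for those that passed the adjusted threshold. TE differences reach -1.98 in Lama5, and 8 filled TE points lie below 0 and none above.

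Whether the genotypes responded differently to Torin1 was tested as the interaction of genotype and Torin1 over the 4 conditions. In footprints, 2 of 39 members were called, beside 0.111% of all transcripts. Loxl2 had an interaction of -1.26 ± 0.21 (adjusted p = 0.00544) and Fbln2 of -1.23 ± 0.21 (adjusted p = 0.00544) on the log2 scale, a more negative response in KO. Lama5 was at -1.95 ± 0.46 (adjusted p = 0.0885) and Lamc1 at -0.77 ± 0.19 (adjusted p = 0.10), and with the replicate number as a block Lamc1 was called at -0.77 (adjusted p = 0.0181). The count was 0 without KO Torin1 replicate 1 and 4 without ctrl DMSO replicate 3. The median interaction of the members was -0.63, with 13 (33.3%) at an unadjusted p under 0.05, beside 6.83% of all transcripts.

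In TE, no member was called by edgeR (0 of 39, 0% of all transcripts), with 11 (28.2%) at an unadjusted p under 0.05, beside 5.75% of all transcripts, and a median of -0.57. In mRNA none was called (0 of 44, 0% of all transcripts), none was under 0.05 unadjusted, and the median was -0.05. The lower TE of more members in KO than in ctrl after Torin1 is therefore not shown to differ between the genotypes member by member, outside the footprint calls for Loxl2 and Fbln2.

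The rule did not use the length of the transcripts. The median coding sequence of the members was 3516 nucleotides in 30 exons, beside 1359 nucleotides in 9 exons for 12703 transcripts matched to the annotation. Basement membrane members had a median of 5124 nucleotides, while Itgb3bp, Itgb1bp1, Sparc and Lox, at 531, 603, 909 and 1236 nucleotides, were shorter than the median of all transcripts. The 5′ leaders of the 69 members had a median of 196 nucleotides and those of the basement membrane members 151, beside 171 for all transcripts.

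The 8 members with lower TE in KO under Torin1 had a median leader of 216 nucleotides with 73.8% G and C. The 237 transcripts of any kind with lower TE in that comparison had a leader of 129 nucleotides with 67.3%, and all 10473 tested transcripts 173 nucleotides with 65.2%. The 26 members tested and not called had leaders of 212 nucleotides with 60.8%. In the first 30 coding bases, the 8 members had a median of 71.7% G and C, the 26 others 61.7%, all transcripts with lower TE 66.7% and all tested 56.7%.

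Across the 39 members tested in KO, the Torin1 change of TE had a Spearman correlation of -0.70 with the G and C content of the coding sequence, beside -0.31 across 10498 transcripts. In ctrl it was -0.56 across 37 members and -0.31 across 10395 transcripts. These are correlations across genes of the same libraries, which are not independent replicates, and the points share libraries and depth. What lies behind these correlations was not tested.

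Other genes of the pathway were taken from 5 lists that hold no member, chosen with earlier results known. For their counts in TE, the shares of all transcripts are those given for the members: 4.29% lower and 0.383% higher after Torin1 in ctrl, 17.8% and 10.6% in KO, and 2.26% and 0.590% between the genotypes under Torin1. Of 19 collagen modifying enzymes and chaperones, 13 were tested in TE. In ctrl, 6 were lower after Torin1, with a median log2 change of -1.03, in KO 10 were lower, with a median of -1.37, and 2 were lower in KO than in ctrl under Torin1, with a median of -0.30. P4hb, the β subunit of prolyl 4-hydroxylase, changed by -1.44 ± 0.17 (adjusted p = 7.38e-06) in ctrl and -1.79 ± 0.11 (adjusted p = 3.40e-12) in KO. Plod1, a lysyl hydroxylase, was lower in KO than in ctrl under Torin1 by -0.80 ± 0.15 (adjusted p = 0.00371), and Colgalt1, a collagen galactosyltransferase, by -0.69 ± 0.13 (adjusted p = 0.00453).

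Of 32 proteoglycans, growth factor binding and matricellular genes, 4 of 13 had lower TE after Torin1 in ctrl (median -0.68) and 7 of 14 in KO (median -0.63), and none of 14 differed between the genotypes under Torin1 (median -0.11). Ltbp4, which anchors latent TGF-β, changed by -1.79 ± 0.27 (adjusted p = 0.000162) in ctrl and -2.59 ± 0.20 (adjusted p = 1.46e-10) in KO. Of 16 metalloproteinases, procollagen proteinases and inhibitors, 1 of 8 was lower in ctrl (median -0.88), 5 of 7 were lower and 1 higher in KO (median -1.34), and none of 7 differed under Torin1 (median -0.40). Bmp1, the procollagen C-proteinase, changed by -2.82 ± 0.35 (adjusted p = 9.01e-07) in KO, and Timp2, an inhibitor, was the one higher, at 0.83 (adjusted p = 0.0184).

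Of 21 integrin adaptors and focal adhesion genes, none of 18 was called in ctrl (median 0.04), 5 of 17 were lower and 2 higher in KO (median -0.20), the latter close to the share of all transcripts, and none of 18 differed between the genotypes under Torin1 (median -0.04). Ptk2, the focal adhesion kinase, was higher in KO by 0.66 ± 0.13 (adjusted p = 0.000436) and Vcl, vinculin, lower by -0.68 ± 0.17 (adjusted p = 0.00402). The last list held 5 integrin-named genes outside the rule, among them Itgav and Itgbl1, and not all are integrin chains. Of these, 2 were tested and none was called in TE in any of the 3 comparisons. In footprints, 1 of 2 was higher after Torin1 in KO, beside 18.5% of all transcripts. That was Itgbl1, at 1.09 ± 0.32 (adjusted p = 0.00617).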

How the data were processed

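RNA-seq and Ribo-seq libraries of N2a cells were compared in 4 conditions. For the 8 deposited count tables, the authors lysed cells in cycloheximide, sequenced poly(A) RNA (stranded) and nuclease footprints, aligned reads to mm10 with HISAT2 and to canonical Ensembl transcripts with bowtie2, and counted reads, or P-sites placed by riboWaltz, per coding sequence. The tables are deposited as raw counts per transcript, split by comparison. They also hold the authors' own fold changes, p-values and adjusted values, and 2 further tables hold their TE tests; none of these was used. Footprints were selected by length, so counts depend on nuclease digestion and on cycloheximide, and reads shared by paralogs cannot be assigned with certainty.

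From the counts, each comparison was fitted in edgeR 4.0.16 (R 4.3.3, limma 3.58.1) with TMM scaling, a filter of over 1 CPM in all libraries of at least 1 condition and the quasi-likelihood test, adjusted by Benjamini-Hochberg over all transcripts (threshold 0.05). TE was the assay by condition interaction. DESeq2 1.42.0, no scaling, no filter, a replicate block and leaving out each library were the alternatives. Counting intervals are exact at 95%. The fits were tested on simulated data. P-values rest on 2 or 3 libraries per group from passages of the same cells.

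The labels say that each replicate is a different passage of the cells, without saying that a number is the same passage in every condition. Numbers were taken to pair libraries on that basis. Deviations from condition means of same-numbered libraries correlated at -0.0378 to 0.689 (median 0.127) in RNA-seq and -0.0435 to 0.125 (median 0.0443) in Ribo-seq. Those of other numbers correlated at -0.541 to 0.385 and -0.125 to 0.111. Deviations within a condition cancel out, so these ranges partly mirror each other and do not decide whether numbers pair libraries. In 1 RNA-seq table (DMSO, both genotypes) a replicate number occurs 2 times per genotype, so numbers for the block came from the same counts in the other tables.

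Members and lists were chosen with earlier results of these data known. Named were all called members of a comparison or, where over 14, the 7 per direction with the smallest adjusted p, the 2 of each role with the most mRNA per kilobase, Thbs1, Papln and Lamb2 as a description, Eif4e3, and of each other list the 2 called genes with the smallest p; exceptions are marked. Sequences and gene models come from GENCODE M21 (GRCm38), which matched all 69 members. Values of 1 member and 1 marker gene are not reported here by name.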

Additional observations from a re-analysis of the deposited data

Results flagged for a closer look

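For 2 members the response to Torin1 differed between KO and ctrl cells by a test of the difference itself, the interaction of genotype and Torin1 on footprints (edgeR's quasi-likelihood test, adjusted p = 0.00544 for each). The interaction was -1.2317 on the log2 scale for Fbln2 and -1.2616 for Loxl2, a more negative response in KO. In ctrl, Fbln2 footprints changed by -1.66 and in KO by -2.91. Loxl2 footprints in the 3 ctrl Torin1 libraries, 79.6 to 86.8 CPM, spanned the ctrl DMSO values of 81.1 and 82.0, while in KO they went from 111 to 123 CPM in DMSO to 41.9 to 55.1 CPM in Torin1. Neither call remained without KO Torin1 replicate 1.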

How the results depend on the processing

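The counts of members called kept within 1.5 times of the values given under most alternatives. With the replicate number as a block, which pairs libraries of the same number, 6 members in place of 0 differed in mRNA between KO and ctrl in DMSO, 15 in place of 4 in Torin1, and 7 in place of 3 changed in mRNA after Torin1 in ctrl. Calls over all transcripts rose in each of these comparisons as well, as given below. All 91 named calls remained under the block. It added the calls given beside the results and further ones. After Torin1 these included Col7a1 and Col24a1 in ctrl footprints and TE, and Thbs3 in ctrl footprints. They also included Col6a5 and Itga10 in ctrl mRNA, and Col4a2 and Col6a5 in KO mRNA. In mRNA of KO against ctrl under Torin1, Col17a1, Itga2, Itga8 and Itgb1bp1 were among those added. Without scaling, 1 member in place of 3 rose in ctrl mRNA. DESeq2 called 6 members in place of 11 in footprints of KO against ctrl under Torin1. No direction of a named call reversed.

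Leaving out 1 library at a time, the members called ranged from 0 to 10 and from 5 to 11 in mRNA after Torin1 in ctrl and KO, from 0 to 4 in mRNA of KO against ctrl under Torin1, from 11 to 12 and 23 to 23 in footprints after Torin1, from 7 to 9 in footprints of KO against ctrl under Torin1, from 0 to 4 in the footprint interaction, from 8 to 10 and 17 to 21 in TE after Torin1, from 4 to 9 in TE of KO against ctrl under Torin1, and stayed at 0 in the other 5 results. Of fits without 1 library, 642 kept a named call and 92 lost it; DESeq2 kept 81 and lost 8, no filter kept 87 and lost 2, and no scaling kept 86 and lost 5. The interaction was not run with DESeq2 or without the filter. Where a fit left 1 library in a condition, that library was assumed to vary like the others.

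Over all transcripts, calls changed by more than 1.5 times with DESeq2 for mRNA of KO against ctrl in DMSO (21 in place of 2) and in Torin1 (342 in place of 216), mRNA after Torin1 in ctrl (723 in place of 299), TE of KO against ctrl under Torin1 (506 in place of 299) and footprints of KO against ctrl under Torin1 (422 in place of 651) and after Torin1 in ctrl (956 in place of 1670). With the block they were 866, 1041 and 1328 for the first 3, 541 for that TE comparison, 1797 in place of 1097 for mRNA after Torin1 in KO and 35 in place of 12 for the footprint interaction. In mRNA of KO against ctrl in DMSO they were 0 without scaling and 4 without the filter. The cause was not tested. Depth limits members with few footprints, and ctrl DMSO had 2 Ribo-seq libraries.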
